A study of Mus musculus with 6 samples.

Results

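The genes described here are the receptors of the interleukins and of the tumour necrosis factor (TNF) family that mouse intestinal epithelial cells could use to sense immune signals. They were chosen by symbol alone, as the genes named Il with a number and r (Il18r1, for example) or Tnfrsf with a number. The pattern matched 58 genes, of which Il17rb, Tnfrsf17 and Tnfrsf19 were set aside by the rule, leaving 55 of the 18159 genes measured. One of the 55, Il1rn, encodes a secreted antagonist of the interleukin-1 (IL-1) receptor rather than a receptor and is kept because its symbol matched.

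RNA was sequenced from 6 libraries of intestinal epithelial cells of mice aged 12 days, 3 titled wild-type and 3 titled Git2-knockout. GIT2 is a scaffold protein that also turns off small GTPases of the Arf family. The genotype field calls the second group a Git2 knockdown, the series design calls all samples enteroids (epithelial cultures grown from crypts), and no source used here gives the strain, the sex or the altered stretch of the Git2 gene. Nothing in the labels says whether the 3 libraries of a group are 3 animals or 3 cultures, so the p-values reflect just the spread among these libraries and may be technical.

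Interleukin receptors are usually complexes of a chain that binds the ligand and a second chain that is shared with other complexes. Those of the IL-1 family carry a Toll-like domain inside the cell and signal through MyD88 and IRAK kinases to NF-kappaB, those of the common gamma chain, IL-6 and IL-10 classes signal through JAK kinases and STAT factors, and TNF receptors recruit TRAF adaptors or, through a death domain, TRADD and FADD. In the gut epithelium IL-22 is known for driving regeneration and antimicrobial defence, IL-17 for defence and barrier upkeep, IL-4 and IL-13 for the response to worms, and TNF for inflammation and cell death.

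The libraries held 16284414 to 19106581 estimated counts. Levels of a gene are given as CPM, counts brought to a common library total with TMM factors. Git2 itself had 22.2, 23.7 and 22.7 CPM in wild-type and fell to 17.4, 15.5 and 16.8 CPM in labelled Git2-knockout, a log2 fold change of -0.47 (SE 0.07, adjusted p = 4.44e-05, edgeR with Benjamini-Hochberg adjustment). Epithelial markers summed to 13810 to 14328 TPM, a unit that also divides by transcript length, in wild-type and 13269 to 13371 TPM in the labelled Git2-knockout libraries, and 8 of 10 fell. Markers of other cells were read at far lower sums. Of the tested fibroblast and smooth muscle markers 11 of 12 rose (summed 22.6 to 24.0 TPM in wild-type, 75.9 to 82.2 TPM in labelled Git2-knockout), as did 10 of 10 endothelial markers (16.3 to 16.6 TPM against 40.1 to 45.5 TPM) and 3 of 4 mast cell markers (24.5 to 26.7 TPM against 51.0 to 63.6 TPM). B cell markers fell for 9 of 10 tested (25.6 to 26.3 TPM against 11.4 to 12.7 TPM). Of 12 macrophage and dendritic cell markers 4 rose and 1, Csf1r, fell, with sums of 169 to 172 TPM against 140 to 145 TPM. Csf1r alone held 103 to 105 TPM in wild-type and 51.5 to 55.1 TPM in labelled Git2-knockout, and the other 11 summed to 64.2 to 68.2 TPM against 87.8 to 89.6 TPM. Of the 4 of 15 T and NK cell markers that could be tested 0 rose and 1 fell. Some markers were tested only because of their level in 1 group. Among them were Cpa3, Fcgr1, Tek, Postn, Myh11 and Tagln in labelled Git2-knockout, and Fcrla and Blk in wild-type. The counts of markers called are therefore no support for a direction. Of all genes tested 29.6% rose and 27.4% fell. The sums hold tested and untested markers alike. No marker of these lists was at 0 in all libraries. In bulk RNA, fewer cells of a type and less RNA per cell cannot be told apart, and the part of these other cells in the receptor results was not tested.

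Of the 55 receptor genes, 39 had enough reads to be tested, and 12 of them rose and 6 fell in the libraries labelled Git2-knockout (edgeR quasi-likelihood test, Benjamini-Hochberg adjusted p under 0.05). That is 46.2% of those tested, against 57.0% of all 13558 genes tested, of which 29.6% rose and 27.4% fell, so being called was no more common among the receptors than in the table as a whole. The median log2 fold change of the tested receptors was 0.10, against 0.02 over all genes tested. The CPM of the groups did not overlap for 24 of the 39, against 62.9% of all genes. A change of at least 2-fold was called for 7 receptors, 5 up and 2 down. Over all genes 4.65% were called at that size, and 3.69% were called upward. The other 21 tested receptors had log2 fold changes between -0.54 and 0.63. Of the 39, 31 reached the filter's count in all libraries of both groups, and 9 of these rose and 4 fell. Il12rb1 reached it in 2 wild-type libraries and 1 labelled Git2-knockout library. Another 7 reached it in all libraries of only 1 group: Il1r2, Il1rl2, Tnfrsf22 and Il7r in labelled Git2-knockout, and Il21r, Tnfrsf13c and Tnfrsf13b in wild-type. These were tested only because of their level in that group, so the counts above are no support for a direction, and 5 of the 7 changes of at least 2-fold are among them. The IL-1 and IL-18 receptor family held 4 rises that passed in both groups (Il18r1, Il1rl1, Il1r1 and Il1rap), while the most abundant receptors moved by small amounts in both directions.

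**Figure D1:**
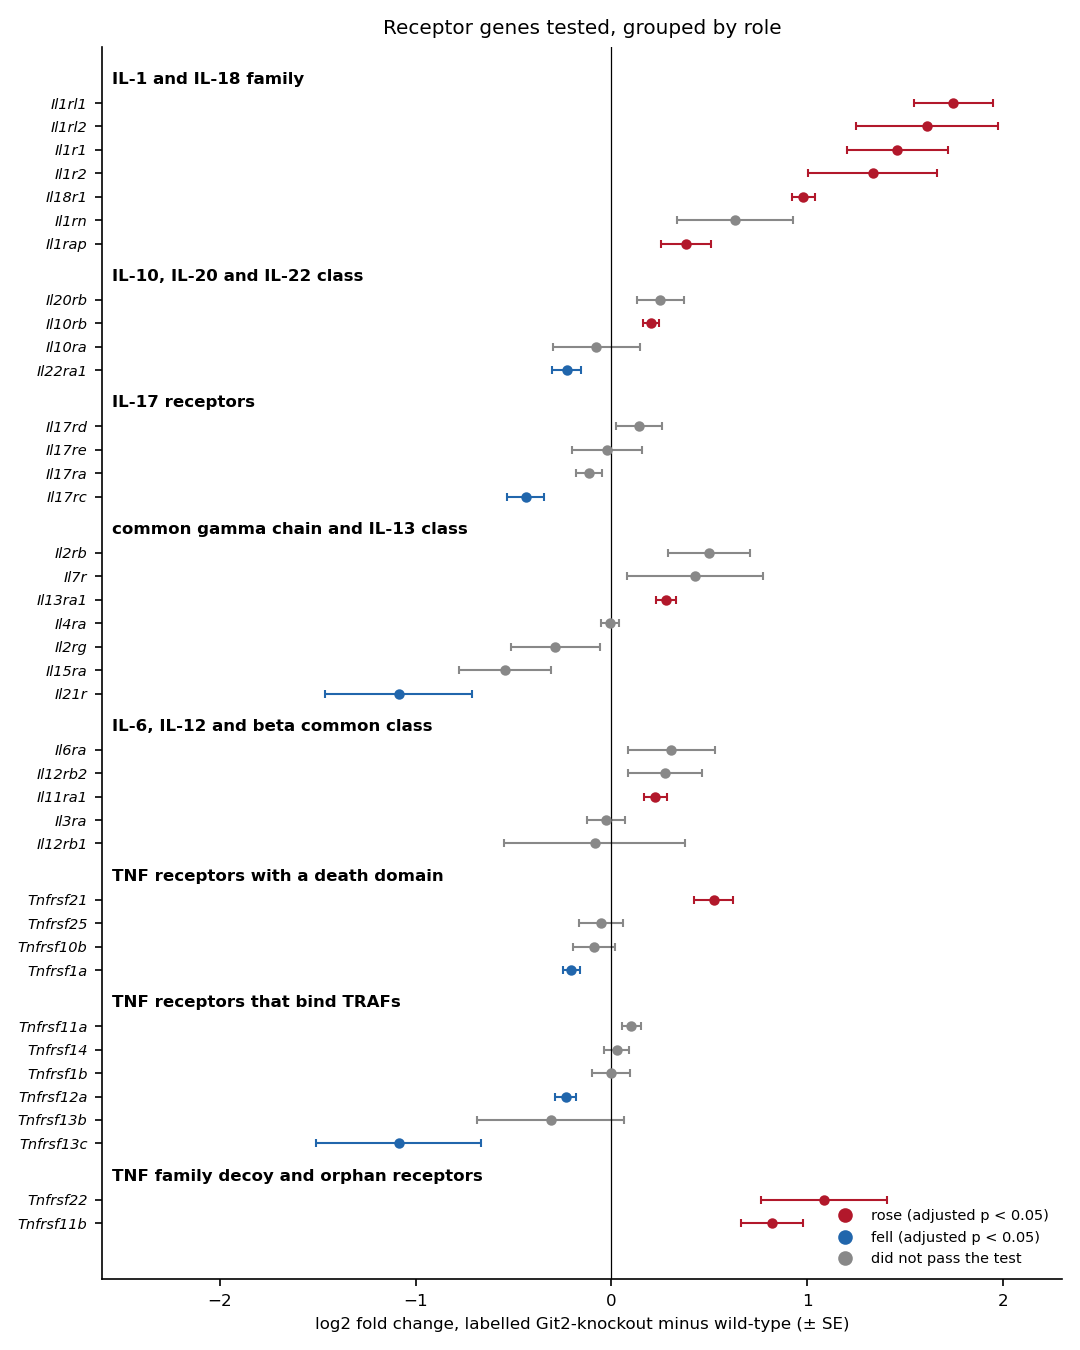
Each point is the log2 fold change of a tested receptor gene, labelled Git2-knockout minus wild-type, with its SE as a bar. Genes are grouped by role, and red marks the 12 that rose, blue the 6 that fell and grey the 21 that did not pass. The IL-1 and IL-18 family stands furthest to the right, with 5 genes between 0.98 and 1.75. Of these, Il1r2 and Il1rl2 were tested only because their labelled Git2-knockout libraries were high.

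The IL-1 and IL-18 family held the receptors that rose most. Il18r1 encodes the chain that binds IL-18, a cytokine made by the epithelium itself, and was by far the best read of them. It stood at 21.2, 22.2 and 22.5 CPM in wild-type and at 40.9, 45.0 and 43.9 CPM in the labelled Git2-knockout libraries (21.9 ± 0.661 against 43.3 ± 2.12 CPM, SD, n = 3 libraries each). Every library labelled Git2-knockout was well above every wild-type library, a 1.97-fold rise (log2 fold change 0.98, SE 0.06, edgeR adjusted p = 2.25e-09). Il18rap, the accessory chain without which IL-18 does not signal, had only 2 to 9 estimated reads per library and was removed by the filter on low counts. Its 3 wild-type values were 0.215, 0.214 and 0.106 CPM, and those labelled Git2-knockout were 0.546, 0.293 and 0.294 CPM.

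Il1rl1 encodes ST2, the receptor of the alarmin IL-33. Its level was 1.24, 1.01 and 0.905 CPM in wild-type and 3.82, 3.81 and 3.003 CPM in labelled Git2-knockout, a 3.35-fold rise (log2 fold change 1.75, SE 0.20, edgeR adjusted p = 2.16e-06) and the largest log2 fold change among the 39 tested genes of the set. Il1r1, the signalling receptor for IL-1, stood at 1.02, 0.801 and 0.692 CPM against 2.79, 1.70 and 2.47 CPM (2.75-fold, log2 fold change 1.46, SE 0.26, edgeR adjusted p = 1.48e-04). The groups of both genes were clear of each other. Il1r2, a decoy that binds IL-1 without signalling, stood at 0.430, 0.267 and 0.585 CPM against 1.09, 1.05 and 1.12 CPM (log2 fold change 1.33, SE 0.33, edgeR adjusted p = 0.00255). Il1rl2, the receptor of the IL-36 cytokines, stood at 0.377, 0.481 and 0.160 CPM against 0.971, 1.11 and 1.06 CPM (log2 fold change 1.61, SE 0.36, edgeR adjusted p = 0.0013). These last 2 genes rest on few reads, 5 to 19 and 3 to 19 per library, and passed the filter only through their labelled Git2-knockout libraries. With no filter on low counts they were called as well (edgeR adjusted p = 0.00274 for Il1r2 and 9.7e-04 for Il1rl2).

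Il1rap encodes the second chain that IL-1, IL-33 and IL-36 receptors share. It rose less, from 4.79, 4.38 and 3.94 CPM to 5.64, 5.27 and 6.12 CPM (log2 fold change 0.38, SE 0.13, edgeR adjusted p = 0.0182). Per transcript length, Il1rap was at 5.83 ± 0.732 times the level of Il1r1 in wild-type and 2.75 ± 0.527 times in labelled Git2-knockout, and at 4.39 ± 0.608 against 1.42 ± 0.364 times the level of Il1rl1 (TPM ratios, SD, n = 3 libraries each). Neither pair of groups overlapped, and each exact two-sided permutation test gave p = 0.1, the smallest value that 3 against 3 libraries allow. The TPM ratio of the decoy Il1r2 to Il1r1 was 2.02 ± 1.19 in wild-type and 1.70 ± 0.364 in labelled Git2-knockout. Those groups overlapped (exact two-sided permutation p = 0.9). The call of Il1rap was lost in 6 of 19 alternatives: with DESeq2 (adjusted p = 0.166), without wild-type replicate 3 (0.0843) or Git2-knockout replicate 3 (0.0873), with the transcript length trend removed, without and with a replicate block (0.110 and 0.124), and with length and GC trends removed (0.651). The antagonist Il1rn stood at 0.592, 0.587 and 0.692 CPM against 1.15, 0.937 and 0.824 CPM and did not pass (log2 fold change 0.63, SE 0.30, edgeR adjusted p = 0.0805). Il1rapl2, an accessory-like member, had at most 1.14 reads in a library. Beside these rises stand the marker sums given above. Mast cell, fibroblast and endothelial markers rose with medians of 1.18, 1.30 and 1.20 on the log2 scale. These medians include markers tested only because of their level in labelled Git2-knockout. The part of such cells in the rise of the IL-1 family receptors was not tested.

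**Figure D2:**
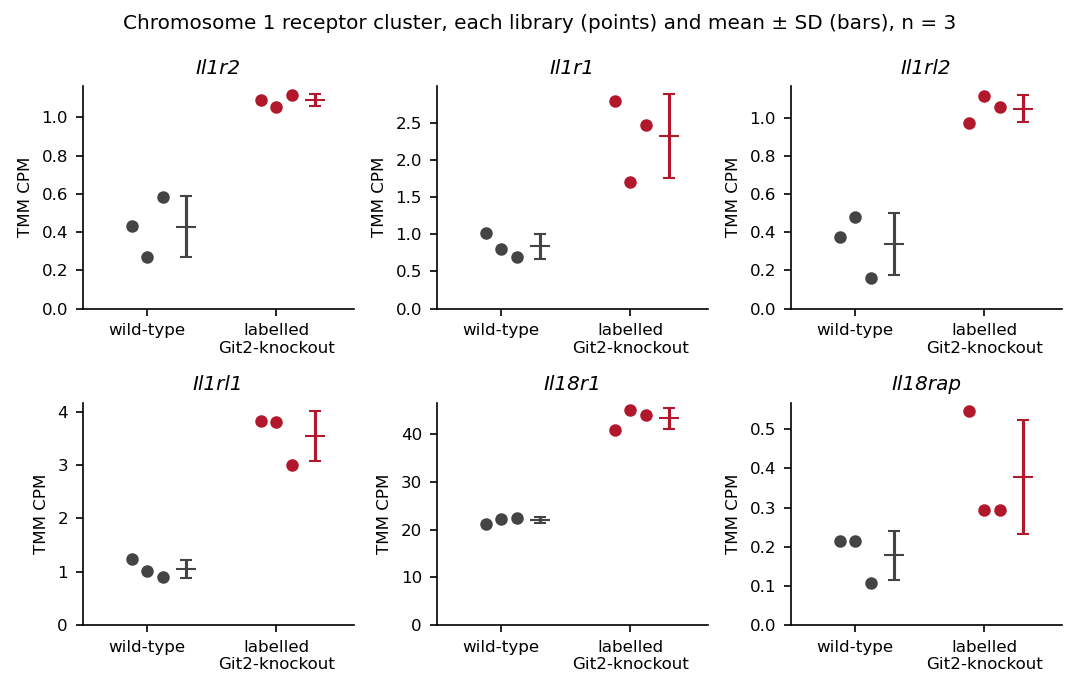
CPM of the 6 receptor genes that lie side by side on chromosome 1, with a point for each library and the mean ± SD beside the points (n = 3 libraries per group). In each panel all labelled Git2-knockout libraries lie above all wild-type libraries. The groups did not overlap, in either direction, for 62.9% of all genes tested. Il1r2 and Il1rl2 were tested only because their labelled Git2-knockout libraries were high. Il18r1 is highest, at 40.9 to 45.0 CPM, and Il18rap had too few reads to be tested.

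Il1r2, Il1r1, Il1rl2, Il1rl1, Il18r1 and Il18rap are neighbours on chromosome 1, in that order in the RefSeq gene table of the GRCm38.p6 assembly, with no other protein-coding gene of the table between them. Il1r1, Il1rl1 and Il18r1, which passed the filter in both groups, rose by 0.98 to 1.75 on the log2 scale. Il1r2 and Il1rl2 rose too but were tested only because their labelled Git2-knockout libraries were high, and Il18rap was not tested (1.04 with no filter, edgeR adjusted p = 0.177). The cluster was looked at after its values were seen, so this is a description. Of the 10 nearest tested protein-coding genes, 5 on each side, 1 rose, 2 fell and 7 did not pass, with a median log2 fold change of -0.12 and a range of -0.46 to 0.20. On the side of Il1r2, Rpl31, a ribosomal protein gene, fell (-0.41) and Rnf149 rose (0.20). On the side of Il18rap, Slc9a2, a sodium-proton exchanger, fell (-0.46).

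**Figure D3:**
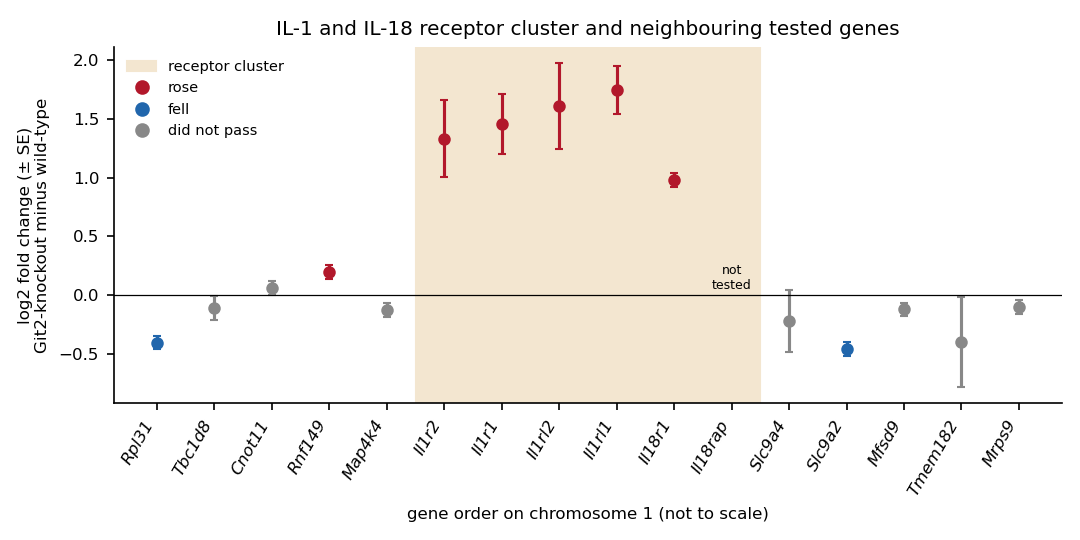
Log2 fold change (labelled Git2-knockout minus wild-type, with SE) of the tested genes in and around the receptor cluster of chromosome 1, in gene order and not to scale. The 5 tested receptors lie at 0.98 or above, but Il1r2 and Il1rl2 were tested only because their labelled Git2-knockout libraries were high. The 10 flanking genes lie between -0.46 and 0.20.

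For the receptor genes of this cluster, the stretches before their starts are shown where a stretch held no annotated exon. Each is the 250 bases upstream of a RefSeq start site in the GRCm38.p6 build (the authors' build was GRCm39). Il1r1 has 2 annotated starts, with windows at chr1:40224830-40225079 and chr1:40266336-40266585. The windows of Il1rl2, Il1rl1 and Il18rap are chr1:40324339-40324588, chr1:40429320-40429569 and chr1:40515112-40515361, and all lie on the plus strand. Every window of Il1r2 and Il18r1, and a second one of Il1rl1, overlaps an annotated exon and is not shown. Capitals mark matches, on either strand, to an NF-kappaB core (GGG, any 5 bases, CC), a STAT core (TTCNNNGAA), an AP-1 core (TGANTCA) or a GATA core (GATAAG).
Il1r1, first start: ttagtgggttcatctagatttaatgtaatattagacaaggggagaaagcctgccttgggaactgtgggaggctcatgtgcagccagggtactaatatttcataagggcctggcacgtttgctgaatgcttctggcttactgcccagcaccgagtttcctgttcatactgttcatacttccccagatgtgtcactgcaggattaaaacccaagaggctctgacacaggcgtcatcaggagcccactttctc
Il1r1, second start: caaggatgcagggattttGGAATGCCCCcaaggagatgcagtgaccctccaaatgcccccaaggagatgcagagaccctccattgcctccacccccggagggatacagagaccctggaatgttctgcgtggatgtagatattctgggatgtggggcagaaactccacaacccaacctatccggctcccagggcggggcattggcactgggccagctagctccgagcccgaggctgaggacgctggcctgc
Il1rl2: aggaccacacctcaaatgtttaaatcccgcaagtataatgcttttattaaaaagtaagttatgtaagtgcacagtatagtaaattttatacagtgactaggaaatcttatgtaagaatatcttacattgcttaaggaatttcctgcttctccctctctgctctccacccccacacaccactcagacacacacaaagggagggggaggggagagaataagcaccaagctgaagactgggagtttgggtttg
Il1rl1: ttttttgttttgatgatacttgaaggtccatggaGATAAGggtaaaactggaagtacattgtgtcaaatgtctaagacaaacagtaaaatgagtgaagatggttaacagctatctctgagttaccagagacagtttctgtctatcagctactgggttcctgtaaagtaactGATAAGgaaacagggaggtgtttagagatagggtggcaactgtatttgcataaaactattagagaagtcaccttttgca
Il18rap: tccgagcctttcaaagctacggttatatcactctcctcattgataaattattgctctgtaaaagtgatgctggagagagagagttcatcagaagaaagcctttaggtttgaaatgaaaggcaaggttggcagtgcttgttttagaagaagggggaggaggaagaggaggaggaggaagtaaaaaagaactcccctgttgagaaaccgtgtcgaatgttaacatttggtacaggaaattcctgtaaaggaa
The Il1rl1 window held 2 matches to the GATA core, the second Il1r1 window held 1 match to the NF-kappaB core, and the other windows shown held none of the 4. Of the 4, the letters of the NF-kappaB core are common. The NF-kappaB core was found in 45.8% of all 32851 promoter windows of that length and in 30 of the 54 windows of receptor genes (44 receptor genes matched). The STAT core was in 7.02% of all and 10 of 54, the AP-1 core in 6.75% and 6 of 54, and the GATA core in 6.55% and 5 of 54. None of the 4 motifs was found in all windows shown. Of the cluster's windows left out, that of Il1r2 held 1 match to the STAT core. Among those of Il18r1, 1 held 1 match to the NF-kappaB core and 2 to the STAT core.

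The ligands of this family moved differently from one another. Il18 stood at 10.3, 10.5 and 10.01 CPM in wild-type and at 7.16, 6.09 and 6.65 CPM in labelled Git2-knockout, so the ligand fell (log2 fold change -0.63, SE 0.10, edgeR adjusted p = 5.5e-05) in the same libraries in which its binding chain Il18r1 rose. Il1a rose by a log2 fold change of 0.54, while Il33 (0.73, adjusted p = 0.0767) and Il1b (0.30, adjusted p = 0.190) did not pass the edgeR test. Of 39 interleukin genes and soluble inhibitors listed, 28 were in the table and 12 could be tested. Of these 12, 4 rose and 2 fell (median log2 fold change 0.35), against 29.6% and 27.4% of all genes tested. Il34 (0.62), Il7 (0.45) and Il15 (0.43) were the other rises and Il17d (-0.23) the other fall. With length and GC trends removed Il17d stood at 0.18, Il7 at 0.10 and Il1a at 0.34, none of them called.

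The receptors read at the highest level per transcript length in these libraries were not those that changed most. Averaged over the 6 libraries, Il10rb stood at 193 TPM (166 to 220), followed by Il4ra at 119 (111 to 132), Tnfrsf12a at 118 (113 to 123), Tnfrsf1a at 114 (110 to 119) and Il22ra1 at 79.2 TPM (64.7 to 85.0). Il11ra1 (41.4 TPM), Il13ra1 (29.0), Tnfrsf11a (24.9), Il18r1 (23.3), Tnfrsf14 (15.9), Il3ra (15.8), Il17ra (15.6) and Il17rc (14.9) made up the 13 receptors with a mean of at least 10 TPM. In this order the ranges of neighbours over the libraries overlapped except below Il10rb, Tnfrsf1a, Il22ra1 and Il17rc. All receptors together summed to 806 to 813 TPM in wild-type and 878 to 941 TPM in labelled Git2-knockout, and the 5 most abundant held 70.6% to 74.5% of that. The TPM scale itself lay higher in the labelled Git2-knockout libraries, by a median of 0.15 on the log2 scale over all genes tested. Of the 13 abundant receptors 4 rose, 4 fell and 5 did not pass, with log2 fold changes of -0.44 to 0.98. Of the 26 tested below 10 TPM, 8 rose, 2 fell and 16 did not pass, with a range of -1.09 to 1.75. Over all genes tested 29.6% rose and 27.4% fell. Among the calls below 10 TPM, Il1r2, Il1rl2 and Tnfrsf22 were tested only because of their level in labelled Git2-knockout. Il21r and Tnfrsf13c were tested only because of their level in wild-type.

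**Figure D4:**
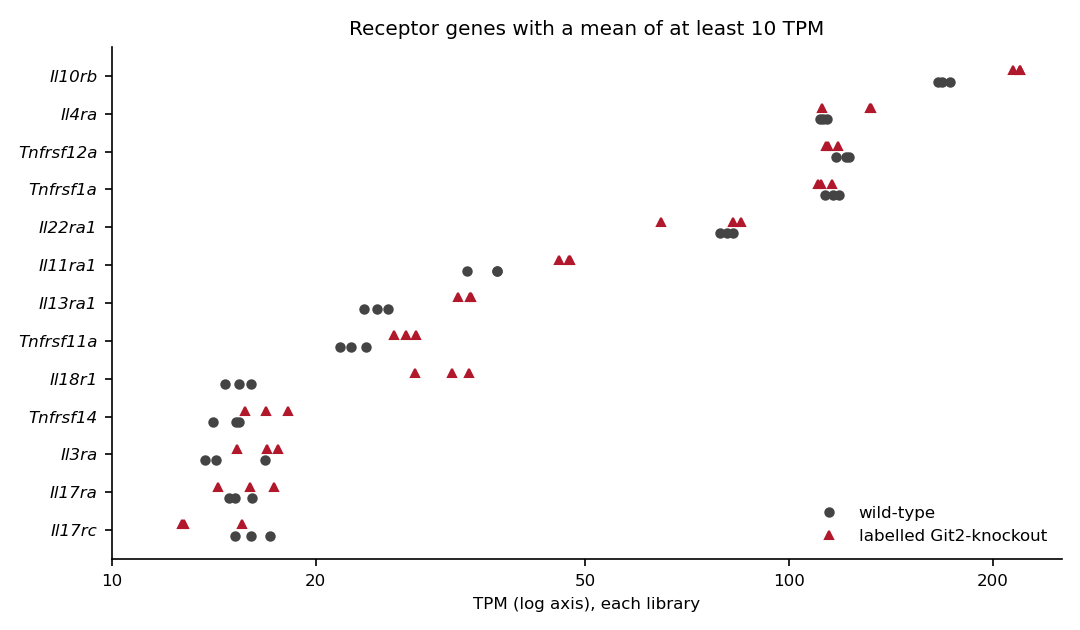
TPM on a log axis of the 13 receptor genes with a mean of at least 10 TPM, with a point for each wild-type library (circles) and each labelled Git2-knockout library (triangles). Il10rb is highest at 166 to 220 TPM. Il18r1 shows the widest gap between the groups, and 1 labelled Git2-knockout library stands apart from the other 2 for Il22ra1, at 64.7 TPM, and for Il4ra.

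In the IL-10, IL-20 and IL-22 class the 2 chains of the IL-22 receptor moved in opposite directions. Il10rb, the chain shared by the receptors of IL-10, IL-22 and type III interferons, rose from 154, 151 and 150 CPM to 176, 172 and 175 CPM (log2 fold change 0.20, SE 0.04, edgeR adjusted p = 4.06e-04). Il22ra1, which binds IL-22, stood at 234, 232 and 228 CPM in wild-type and at 170, 213 and 209 CPM in labelled Git2-knockout (log2 fold change -0.23, SE 0.07, edgeR adjusted p = 0.0215). All 3 labelled Git2-knockout libraries lay below wild-type, replicate 1 furthest, and without that library the log2 fold change was -0.16 (edgeR adjusted p = 1.87e-04). The fall of Il22ra1 was lost without wild-type replicate 1 (adjusted p = 0.0575) and on log2(TPM + 0.5) (log2 fold change -0.08, limma adjusted p = 0.506), and was larger with the transcript length trend removed (-0.44, edgeR adjusted p = 3.2e-07). Per transcript length, Il10rb was at 2.09 ± 0.0128 times the level of Il22ra1 in wild-type and 2.85 ± 0.403 times in labelled Git2-knockout (TPM ratio, SD, n = 3 libraries each), without overlap and with an exact permutation p = 0.1, again the smallest possible. Il20rb (log2 fold change 0.25, edgeR adjusted p = 0.0886) and Il10ra, the chain that binds IL-10 (-0.08, adjusted p = 0.787), did not pass. Il22ra2, a soluble binder of IL-22, had 4 to 10 reads and was not tested.
The promoter window of Il22ra1, the IL-22-binding chain, is chr4:135727909-135728158 on the plus strand of GRCm38.p6. It held 2 matches to the NF-kappaB core and 1 to the AP-1 core, given in capitals as letters and not as binding sites.
Il22ra1: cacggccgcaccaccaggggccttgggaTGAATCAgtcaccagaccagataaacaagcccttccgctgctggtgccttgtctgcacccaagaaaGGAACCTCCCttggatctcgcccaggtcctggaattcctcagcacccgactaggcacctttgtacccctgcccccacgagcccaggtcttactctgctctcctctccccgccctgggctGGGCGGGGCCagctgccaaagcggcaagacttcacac

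Among the IL-17 receptors, Il17rc fell and the other 3 did not pass. Il17rc, which pairs with Il17ra to bind IL-17A and IL-17F, stood at 16.5, 18.3 and 19.1 CPM in wild-type and at 12.6, 12.1 and 14.955 CPM in labelled Git2-knockout, with no overlap (log2 fold change -0.44, SE 0.09, edgeR adjusted p = 7.47e-04). Il17ra, the chain common to the family, stood at 28.6, 31.2 and 29.7 CPM against 25.6, 27.2 and 29.9 CPM (-0.12, SE 0.07, adjusted p = 0.153 with edgeR), and its groups overlapped. The TPM ratio of Il17ra to Il17rc was 0.956 ± 0.0608 in wild-type and 1.17 ± 0.0836 in labelled Git2-knockout (SD, n = 3 libraries each; exact permutation p = 0.1). Il17re, which binds the epithelial cytokine IL-17C, and Il17rd had log2 fold changes of -0.02 and 0.14. With length and GC trends removed Il17rc stood at -0.17 and was not called (edgeR adjusted p = 0.111).

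The receptors of IL-4 and IL-13 were abundant. Il4ra, which both cytokines need, had 282, 282 and 281 CPM in wild-type and 257, 291 and 293 CPM in labelled Git2-knockout, so the labelled libraries lay on both sides of wild-type (log2 fold change -0.01, SE 0.05, edgeR adjusted p = 0.902). Il4ra was called in both directions by other fits, as a fall with the transcript length trend removed (-0.18, edgeR adjusted p = 8.87e-05) and as a rise on log2(TPM + 0.5) (0.15, limma adjusted p = 0.0488). Il13ra1, its partner in the epithelial receptor, rose from 44.3, 46.5 and 43.1 CPM to 54.0, 53.9 and 54.3 CPM (0.28, SE 0.05, edgeR adjusted p = 2.18e-04). With length and GC trends removed it stood at -0.08 and was not called. The TPM ratio of Il4ra to Il13ra1 was 4.58 ± 0.168 in wild-type and 3.75 ± 0.262 in labelled Git2-knockout (SD, n = 3 libraries each), again without overlap and with an exact permutation p = 0.1.
The remaining receptors of the common gamma chain class, best known from lymphocytes, were read at low levels. Il21r, the IL-21 receptor, stood at 0.646, 1.23 and 1.17 CPM against 0.425, 0.703 and 0.294 CPM (log2 fold change -1.09, SE 0.37, edgeR adjusted p = 0.0210). Its groups overlapped, it passed the filter only through wild-type, and the call was lost in 6 of 18 alternatives, among them DESeq2 (adjusted p = 0.104) and the fits without wild-type replicate 2, wild-type replicate 3 or Git2-knockout replicate 3 (0.0825, 0.0801 and 0.0914). Il15ra (-0.54, adjusted p = 0.0578), Il2rb (0.50, 0.0521), Il2rg, the common gamma chain itself (-0.29, 0.296), and Il7r (0.43, 0.313) did not pass the edgeR test. Il2ra and Il9r were not tested. With no filter on low counts, Il9r stood at 1.43 (edgeR adjusted p = 0.0381), on just 1.89 to 10.5 estimated reads per library.

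In the IL-6, IL-12 and beta common class, 1 of 5 tested members rose, against 29.6% of all genes tested. Il11ra1, which binds IL-11, went from 28.2, 31.6 and 31.7 CPM to 35.7, 35.3 and 35.9 CPM (log2 fold change 0.22, SE 0.06, edgeR adjusted p = 0.00444), and with DESeq2 its adjusted p was 0.0539. Its near-identical copy Il11ra2 had 0 to 22.9 estimated reads, so the split of reads between the 2 genes is uncertain. Il3ra, the IL-3 receptor chain, stood at 10.5, 10.1 and 12.1 CPM against 11.3, 10.8 and 9.95 CPM (-0.03, edgeR adjusted p = 0.835). Il6ra (0.31), Il12rb2 (0.27) and Il12rb1 (-0.09) did not pass either. Exons of Il12rb2 overlap 1419 bases of Serbp1 on the other strand in the GRCm38 annotation. No source used here states whether counting used strand, and without it reads of the 2 genes cannot be told apart. Il5ra, Il23r, Il27ra and Il31ra were not tested.

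Of the TNF receptors with a death domain, Tnfrsf1a fell and Tnfrsf21 rose. Tnfrsf1a is TNFR1, the main receptor through which TNF acts on epithelium. It went from 122, 118 and 122 CPM to 106, 105 and 103 CPM, every labelled Git2-knockout library below every wild-type library (log2 fold change -0.20, SE 0.04, edgeR adjusted p = 6.62e-04). On log2(TPM + 0.5) it stood at -0.04, and with length and GC trends removed at 0.02, not called in either. Tnfrsf21, death receptor 6, went from 11.1, 10.6 and 9.47 CPM to 16.5, 14.9 and 13.2 CPM (0.52, SE 0.10, edgeR adjusted p = 2.84e-04). Tnfrsf25, the receptor of TL1A, and Tnfrsf10b, the receptor of TRAIL, had log2 fold changes of -0.05 and -0.09, with adjusted p of 0.703 and 0.497 in edgeR.

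Of the 6 tested TNF receptors that bind TRAFs without a death domain, 2 fell and 0 rose. Among all genes tested 27.4% fell and 29.6% rose, so so few calls say little about this class. Tnfrsf12a, the receptor of TWEAK, stood at 51.6, 54.2 and 54.7 CPM in wild-type and at 48.1, 43.6 and 44.8 CPM in labelled Git2-knockout (log2 fold change -0.23, SE 0.05, edgeR adjusted p = 0.00159). This direction was not kept: with length and GC trends removed it was 0.22, called upward (adjusted p = 2.12e-04). Tnfrsf11a is RANK, which epithelial cells need to become antigen-sampling M cells. It stood at 58.6, 56.8 and 55.4 CPM against 60.5, 62.5 and 60.3 CPM (0.10, SE 0.05, edgeR adjusted p = 0.0899). Tnfrsf14, the herpesvirus entry mediator, stood at 35.1, 34.6 and 32.7 CPM against 35.6, 36.8 and 32.0 CPM (0.03, adjusted p = 0.737), and TNFR2, encoded by Tnfrsf1b, had a log2 fold change of -0.00078 (8.22 ± 0.441 against 8.21 ± 0.185 CPM, SD, n = 3 libraries each).
Tnfrsf13c, the receptor of the B cell survival factor BAFF, stood at 0.807, 0.748 and 1.12 CPM against 0.668, 0.117 and 0.471 CPM (log2 fold change -1.09, SE 0.42, edgeR adjusted p = 0.0364), on 2 to 20.5 reads per library, and passed the filter only through wild-type. B cell markers fell beside it, with a median of -0.93 that includes markers tested only because of their level in wild-type. The part of B cells in the fall of Tnfrsf13c was not tested. The call was lost in 7 of 18 alternatives, among them DESeq2 (adjusted p = 0.143) and the fits without wild-type replicate 1 (0.0592), wild-type replicate 3 (0.146), Git2-knockout replicate 2 (0.162, log2 fold change -0.65) or Git2-knockout replicate 3 (0.0609). Tnfrsf13b, which also binds BAFF, had a log2 fold change of -0.31 (edgeR adjusted p = 0.504). Tnfrsf4, Tnfrsf8, Tnfrsf9 and Tnfrsf18, best known from activated T cells, were not tested.

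Of the decoys of the TNF family, Tnfrsf11b and Tnfrsf22 could be tested. Tnfrsf11b, osteoprotegerin, is a secreted decoy that binds the RANK ligand. It stood at 3.07, 4.06 and 3.30 CPM in wild-type and at 6.86, 4.86 and 6.71 CPM in labelled Git2-knockout, a 1.76-fold rise without overlap (log2 fold change 0.82, SE 0.16, edgeR adjusted p = 3.2e-04). Tnfrsf22, a mouse decoy for TRAIL, stood at 0.538, 0.374 and 0.479 CPM against 1.15, 0.820 and 1.00 CPM (1.08, SE 0.32, edgeR adjusted p = 0.00883), on 6.56 to 18.8 estimated reads. It passed the filter only through labelled Git2-knockout, and with DESeq2 its adjusted p was 0.105. Its neighbours on chromosome 7, Tnfrsf23 and Tnfrsf26, were not tested. How alike the 3 sequences are was not measured, so the split of reads among them is uncertain.

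The 16 receptors removed by the filter had 0 to 22.9 estimated reads in a library and a mean of at most 0.758 TPM. Each of them is named above.

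The other receptors and the signalling parts of these pathways were mixed in direction. For the counts that follow, 29.6% of all genes tested rose and 27.4% fell. Of 19 other cytokine and TNF receptors 15 were tested, of which 6 rose and 2 fell (median log2 fold change 0.13). The lymphotoxin receptor Ltbr, at 154 TPM, fell (-0.28) and the interferon receptor chains Ifngr1 (0.14) and Ifnar1 (0.18) rose, as did the low Csf2rb (1.07) and Osmr (2.32), while Ifngr2, at 197 TPM, did not pass (-0.03). Osmr stood at 0.323, 0.0534 and 0.106 CPM in wild-type and at 1.09, 0.703 and 0.707 CPM in labelled Git2-knockout. It was tested only because of its level in labelled Git2-knockout, so its rise is no support for a direction. With length and GC trends removed Ltbr stood at -0.0025 and Ifnar1 at -0.04, neither called. Of 8 tested TNF family ligands, 2 rose and 3 fell (median 0.01). Tnfsf15, the ligand of Tnfrsf25, rose by 0.74 and Tnfsf10, which encodes TRAIL, rose by 0.31. Tnf stood at 3.17, 3.10 and 3.03 CPM in wild-type and at 2.31, 0.762 and 1.47 CPM in labelled Git2-knockout. It fell with a log2 fold change of -1.04 (SE 0.26, edgeR adjusted p = 0.00326). Its receptor Tnfrsf1a fell too, but was not called on log2(TPM + 0.5) or with length and GC trends removed. Tnfsf13 (-0.75) and Ltb (-0.93) fell as well, and Tnfsf13b, which encodes BAFF, did not pass (-0.28). Ltb, at 0.699, 1.07 and 0.958 CPM in wild-type and 0.546, 0.410 and 0.471 CPM in labelled Git2-knockout, was tested only because of its wild-type level. Of 34 tested adaptors and kinases 7 rose and 9 fell (median -0.02): the NF-kappaB pathway partners Tab3 (0.54) and Tab2 (0.27) and the kinase Jak2 (0.33) rose, the TNFR1 adaptor Tradd (-0.50) fell, and the abundant Casp8 (0.01), Stat3 (0.09) and Stat2 (0.06) did not pass. Of 23 feedback regulators 7 rose and 5 fell (median 0.04), with Socs4 (0.79), Socs2 (0.47) and Socs6 (0.35) rising, the RNase gene Zc3h12a (-0.40) and Tnip1 (-0.16) falling, and Socs3 (0.01) not passing. With length and GC trends removed, Jak2, Tab2, Tradd, Socs6 and Tnfsf10 were no longer called.

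How far a receptor's direction rested on transcript length and base composition differed by gene. The libraries were refitted with the trend of counts over transcript length and GC content taken out of each library, an alternative chosen after seeing the data. Il1rl1 then stood at 1.48, Il1r2 at 1.48, Il1rl2 at 1.46, Il1r1 at 1.22, Il18r1 at 0.83, Tnfrsf11b at 0.62, Tnfrsf21 at 0.58 and Il10rb at 0.32, and these 8 receptors were the ones called in the same direction under every one of the alternatives that gave them a value. Among these, Il1r2 and Il1rl2 were tested only because of their level in labelled Git2-knockout. Most alternatives kept that filter, so the unchanged calls of these genes are no support for a direction. Il22ra1 (-0.25) and Il11ra1 (0.51) were also still called in the fit with length and GC trends removed. Tnfrsf12a (0.22), Tnfrsf1a (0.02) and Il13ra1 (-0.08) changed sign, and Il3ra, not called before, stood at 0.34.

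**Figure D5:**
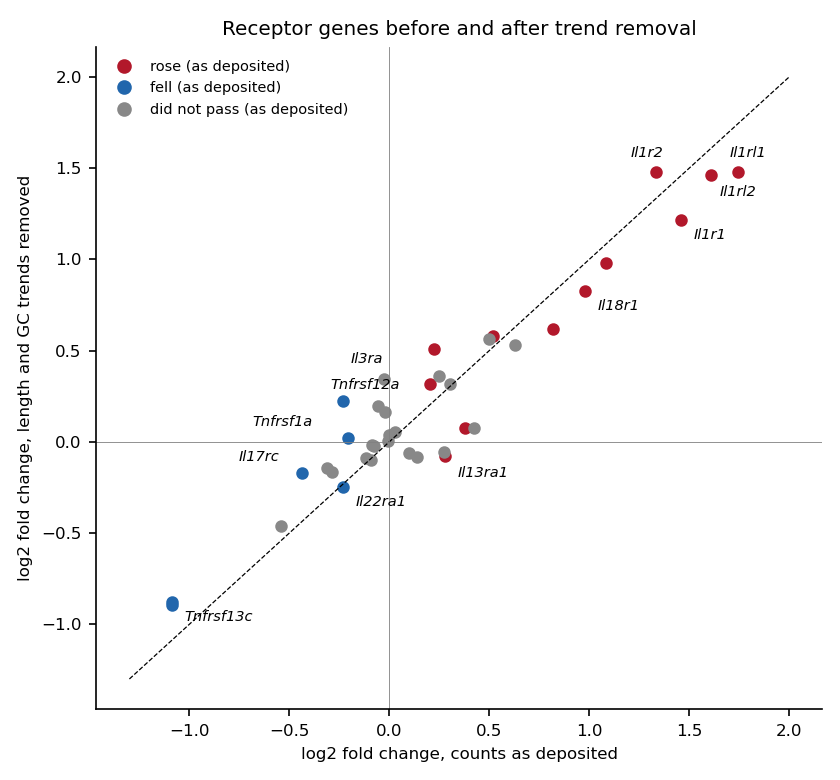
Log2 fold change (labelled Git2-knockout minus wild-type) of each tested receptor with counts as deposited (x axis) and with length and GC trends removed (y axis). The dashed line marks equal values, and colours give the calls before removal. The IL-1 family receptors stay between 0.83 and 1.48 after removal, except Il1rap at 0.08 and Il1rn at 0.53, while Tnfrsf12a, Tnfrsf1a and Il13ra1 cross 0.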

How the data were processed

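Poly(A) RNA of 6 libraries, 3 per group, was quantified by the authors in 1 table of 18159 genes. Per the submitters' processing notes, the tools were HISAT, Bowtie2 and RSEM and the build GRCm39, with no version or role. Estimated counts are deposited per library, per the file headers, and were taken as estimates because 58.9% to 69.2% of values were not whole. TPM and FPKM values are also deposited, per the file headers. FPKM served only to derive transcript lengths. Every value column was mapped to a sample by its title (0 unmapped).

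Counts were rounded and tested with edgeR 4.0.16 (R 4.3.3): filterByExpr (10 counts at the median library total in 3 libraries, 13558 genes), TMM factors, a robust quasi-likelihood fit with no covariates, a two-sided test and Benjamini-Hochberg adjustment over all genes tested at 0.05. Genes were tested also with DESeq2 1.42.0 and limma 3.58.1 (voom, and log2(TPM + 0.5)). Other alternatives were the scaling, the low-count filter, a replicate block, each library left out, and removal of a loess trend (span 0.5) over transcript length, or over length and GC. The script was tested on simulated data.

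The members, gene lists, tests and motifs were chosen with earlier results of these data known, and the AP-1 and GATA motifs and the length and GC fit were added after seeing them. All called receptors were named, as were the 10 most abundant, and of each list of other pathway genes up to 4 called genes with the smallest p and the 3 with the highest TPM. Other genes named were chosen after their values were seen. Promoter windows and gene order come from RefSeq tables of GRCm38.p6. No 2 libraries of a group agreed within counting noise, so none was merged. Same-numbered replicates did not vary together, so the main test has no block.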

Additional observations from a re-analysis of the deposited data

How the results depend on the processing

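Over 19 alternatives, 8 of the 18 called receptors kept their call wherever a value was given. Il1r2 and Il1rl2 are among the 8, and most alternatives kept the filter that they passed only through labelled Git2-knockout. Their unchanged calls are therefore no support for a direction. The number of rising receptors, 12, ran from 11 to 13 with a library left out and fell to 6 when 5 CPM was required in 3 libraries, which tests fewer genes. The number of falling receptors, 6, ran from 4 to 7 with a library left out and was 1 on log2(TPM + 0.5) and 1 with length and GC trends removed. The cause was not tested. On log2(TPM + 0.5), 5753 genes of the whole table rose and 1885 fell, against 4013 and 3712, so the upward share of calls was 75.3% against 51.9% and the median moved to 0.15. With a library left out 3433 to 4059 genes rose and 3130 to 4220 fell. Counting only genes called in at least 1 of the 2 fits compared, signs reversed for Il4ra (0.15) and Ifngr2 (0.13) on log2(TPM + 0.5), for Tnfrsf12a (0.071), Ifnar1 (-0.095) and Il17d (0.0089) with the length trend removed, and for Tnfrsf12a (0.22), Tnfrsf1a (0.020), Il13ra1 (-0.080), Il3ra (0.34), Ifnar1 (-0.040), Il17d (0.18), Socs6 (-0.021) and Tnip1 (0.037) with length and GC trends removed. The cause was not tested. With the replicate block and the length trend removed together, Il4ra stood at -0.18 and was called, Tnfrsf12a stood at 0.071, Ifnar1 at -0.094 and Il17d at 0.0090. In fits that did not call it, Il4ra lay between -0.053 and 0.028. With the replicate number as a block alone, 12 receptors rose and 6 fell, and 3863 and 3578 genes of the whole table did. Deviations of same-numbered libraries from their group means correlated by 0.0409, -0.00113 and 0.0498, so the numbers gave no pairing. Of the 21 receptors not called, 8 were called in at least 1 alternative. Few reads limit the receptors under 1 TPM, 29 of the 55. With 3 libraries per group no single-value permutation test could go below p = 0.1.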
